A study of Homo sapiens with 6 samples.

Results

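The 10 genes described here encode nucleolin (NCL), nucleophosmin (NPM1) and proteins of small nucleolar ribonucleoproteins (snoRNPs): FBL, NOP56 and NOP58 of the box C/D particles, DKC1, NHP2, NOP10 and GAR1 of the H/ACA particles, and NOLC1, a chaperone of both kinds. They were taken from the table by gene name, as a set drawn up by function with earlier results of these data known, and are 10 of the 53712 gene names in the deposited count table. All 10 were expressed enough to be tested, among 17596 genes in all. In GENCODE release 29 (GRCh38) NCL and NOP58 lie on chromosome 2, NPM1 and NHP2 on 5, GAR1 on 4, NOLC1 on 10, NOP10 on 15, FBL on 19, NOP56 on 20 and DKC1 on X. The libraries were poly(A)-selected RNA-seq of the human embryonic stem cell line H9, cultured in the naive-type medium RSeT. From 24 h after passage, all cultures were given 10 nM DZNep, which blocks S-adenosylhomocysteine hydrolase, together with 5 nM TSA, a histone deacetylase inhibitor. With these, 3 libraries received 2.5 µM UNC1999, which inhibits EZH2 and EZH1, the methyltransferases of Polycomb repressive complex 2 (PRC2), and 3 received 2.5 µM UNC2400, its N-methylated analog, which has little activity; both were given for 48 h. No group lacked DZNep and TSA, and none lacked a compound of the UNC pair, so each difference is between the analogs on that shared background. The series title names control of nucleolar organisation by LINE1 and PRC2, and the comparison asks whether transcripts of these nucleolar proteins differed.

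As background, snoRNPs are nucleolar particles in which a small RNA guides a protein enzyme to a base of ribosomal RNA. In box C/D particles FBL (fibrillarin) is the methyltransferase and NOP56 and NOP58 form its scaffold; in H/ACA particles DKC1 (dyskerin) is the pseudouridine synthase, which NHP2, NOP10 and GAR1 accompany. The H/ACA proteins also belong to telomerase. NCL and NPM1 are abundant nucleolar RNA-binding proteins and histone chaperones, and NCL has been described in embryonic stem cells as a partner of LINE1 RNA in rRNA synthesis and in silencing of the early embryonic programme. NOLC1 (Nopp140) binds both kinds of snoRNP and shuttles between the nucleolus and Cajal bodies, whose marker protein coilin it binds.

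Several of these genes carry in their introns the small RNAs that the proteins bind. The sequences of a pair of them, from GENCODE release 29 (GRCh38, plus strand), show the elements that the particles recognise. SNORD56 lies in an intron of NOP56 at chr20:2656624-2656694, and capitals mark TGATG of its box C and CTGA of its box D. SNORA36A lies in an intron of DKC1 at chrX:154768528-154768659, and capitals mark its last ACA, which stands 3 bases before the end.
SNORD56: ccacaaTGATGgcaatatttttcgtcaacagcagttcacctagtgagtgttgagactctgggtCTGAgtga
SNORA36A: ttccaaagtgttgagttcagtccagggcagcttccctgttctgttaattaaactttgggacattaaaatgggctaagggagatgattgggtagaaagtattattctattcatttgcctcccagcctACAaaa

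The libraries held 29699441 to 42345448 counts, and totals did not separate the compounds (exact two-sided permutation p = 1, where 3 against 3 libraries allow no p below 0.1). POU5F1 stood at 935 to 1419 CPM (counts relative to the library's TMM-scaled total), NANOG at 101 to 117 and SOX2 at 436 to 479 over the 6 libraries, so defining markers of the labelled cells were present. The 8 pluripotent markers summed to 7668 to 7767 CPM in UNC2400 and 6407 to 7132 in UNC1999. By the edgeR test described below, 4 of the 8 were called lower in UNC1999 and 0 higher. Over all tested genes 25.9% were called lower and 26.8% higher. POU5F1, at a log2 fold change of -0.44, and NANOG, at -0.14, were among the 4, and SOX2, at -0.0067, was not called. Summed markers of fibroblasts or feeders were at 219 to 242 CPM in UNC2400 and 150 to 163 in UNC1999 over 6 genes. Most of that was COL1A2, at a mean of 137 CPM in UNC2400 and 85.5 in UNC1999, and THY1, at 88.3 and 68.3. COL3A1 had at most 9 counts in any library, and DCN and LUM at most 3. Trophoblast markers summed to 4.67 to 4.91 CPM in UNC2400 and 5.07 to 5.83 in UNC1999 over 6 genes, 2 of them (CGB and VGLL1) at 0 counts throughout. Neural markers summed to 27.3 to 31.7 CPM in UNC2400 and 18.2 to 19.5 in UNC1999 over 4 genes. DCX supplied most of that, at a mean of 24.8 CPM in UNC2400 and 15.8 in UNC1999. MAP2 stood at 2.78 and 1.32 CPM, PAX6 at 1.36 and 1.45, and SOX1 had at most 3 counts in any library. The part of these markers in the results below was not tested. In bulk RNA, fewer cells of a type and less RNA per cell cannot be told apart.

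The 10 transcripts were abundant under both compounds, and their order by level was nearly the same. Their summed share of each library was 0.647% ± 0.0106 under UNC2400 and 0.663% ± 0.0141 under UNC1999 (SD, n = 3 each), and NCL and NPM1 supplied most of that, at 0.462% ± 0.0101 and 0.474% ± 0.0131 (SD, n = 3 each). Levels between genes were compared as CPM per kb of the principal transcript in GENCODE release 29, a scale that depends on the transcript assigned. On it NPM1 was highest in UNC2400 at 1363 ± 42.3, followed by NCL at 574 ± 4.27 and FBL at 319 ± 7.21 (CPM per kb, SD, n = 3 each). The H/ACA proteins, which join in a single particle, spread widely: NOP10 stood at 219 ± 11.9, DKC1 at 77.5 ± 0.546, NHP2 at 63.5 ± 0.616 and GAR1 at 33.9 ± 0.376 CPM per kb (SD, n = 3 each). The C/D scaffold genes stood closer together, NOP56 at 149 ± 6.80 and NOP58 at 117 ± 2.38 CPM per kb (SD, n = 3 each). NOLC1, at 118 ± 3.29 CPM per kb in UNC2400, did not differ from NOP58 beyond the spread, whereas in UNC1999 NOLC1 stood at 99.5 ± 3.94 and NOP58 at 118 ± 4.76 (SD, n = 3 each), with no overlap between the genes. The other neighbours in the order lay apart by more than their SDs under both compounds.

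**Figure D1:**
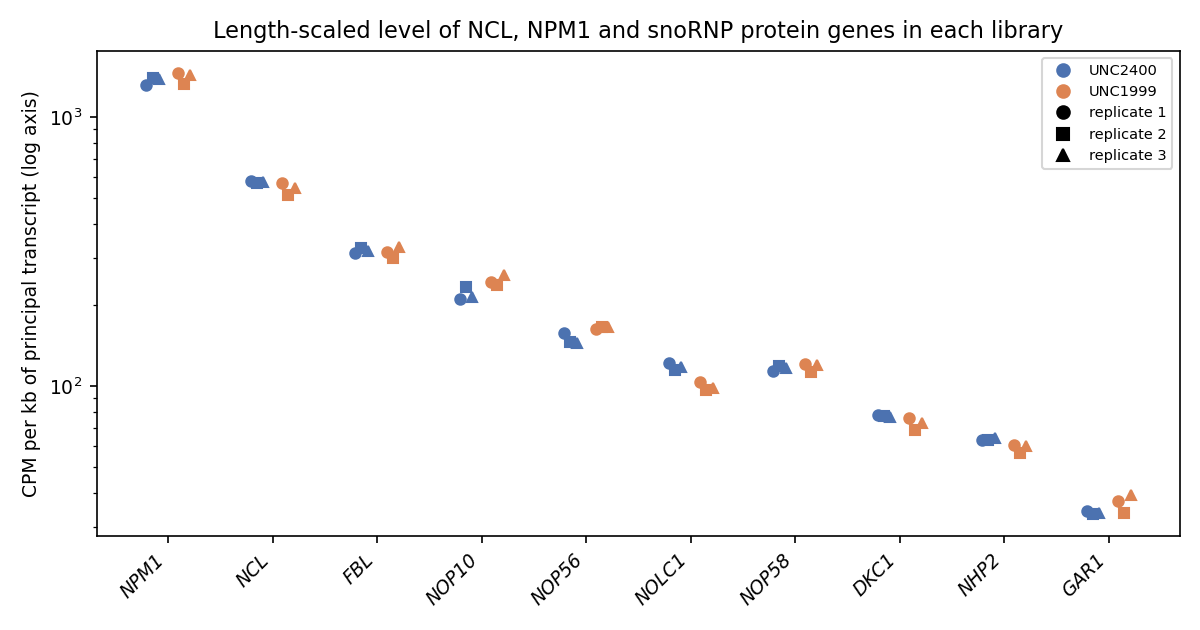
Level of each gene in each of the 6 libraries, as TMM-scaled CPM per kb of principal transcript on a log axis, ordered by the UNC2400 mean; colours give the compound and symbols the replicate. The genes run from NPM1 at 1363 to GAR1 at 33.9 CPM per kb in UNC2400, and the compounds lie close together within each gene.

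Between the compounds, 1 of the 10 genes fell with UNC1999, NOLC1, and 2 rose slightly, NOP56 and NOP10. The rise of these 2 turns to a value below 0, which does not pass the test, when fold changes are corrected for gene length and GC content, as given below. That correction also removes any effect of the compound that goes with these properties. The other 7, NCL, NPM1 and FBL among them, did not pass the test. By edgeR's quasi-likelihood test (adjusted p below 0.05 over all genes tested) 3 of 10 were called, where 52.7% of all tested genes were called, 26.8% as higher and 25.9% as lower. Log2 fold changes, UNC1999 minus UNC2400, ran from -0.25 to 0.17, with a median of -0.0044 beside 0.018 for all tested genes. Their median size without sign was 0.10, against 0.28 for all tested genes. The SE of the 10 fold changes was 0.051 to 0.062, so differences of this size were near the limit of what 3 libraries per compound resolve. The labels do not say whether replicates were separate cultures, so the p-values speak for the scatter of these 6 libraries, some of which may be technical.

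**Figure D2:**
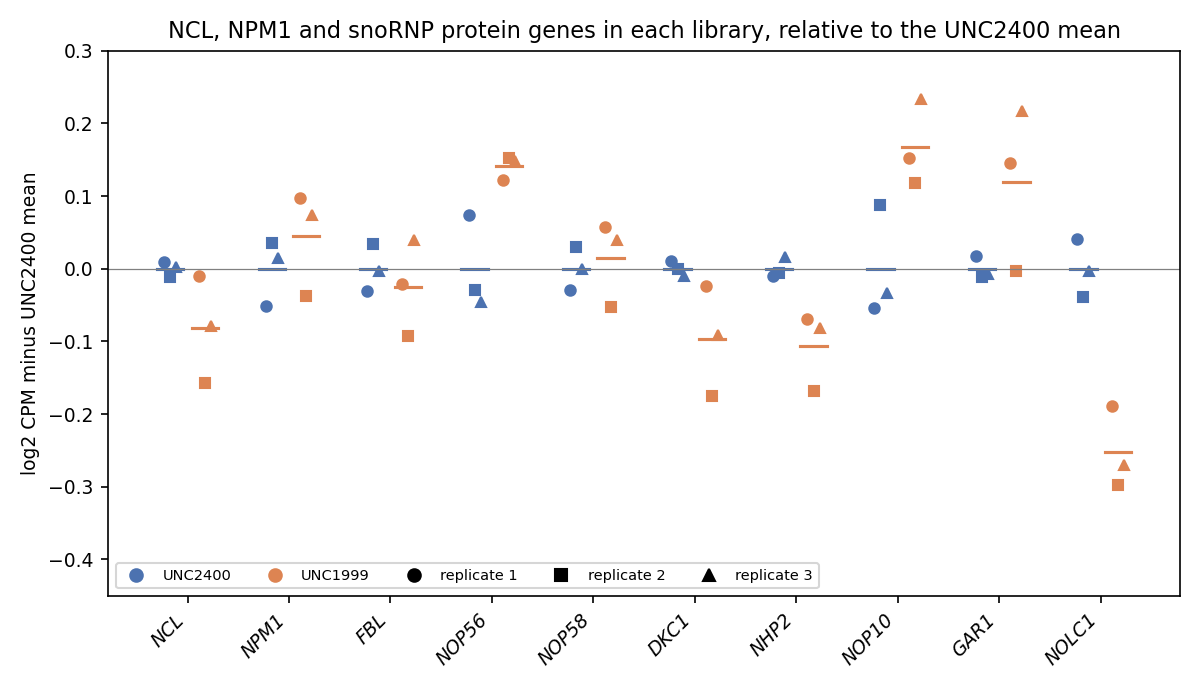
Each gene in each library as log2 CPM minus the UNC2400 mean of that gene; bars mark group means, colours the compound and symbols the replicate. All 3 UNC1999 libraries lie below all UNC2400 libraries for NOLC1, DKC1 and NHP2 and above them for NOP56 and NOP10. The length and GC correction takes NOP56 and NOP10 below 0, with neither called.

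NOLC1, the snoRNP chaperone, was at 483, 457 and 469 CPM in UNC2400 replicates 1 to 3 and at 412, 382 and 389 CPM in UNC1999 replicates 1 to 3. Every UNC1999 library lay below every UNC2400 library. The log2 fold change was -0.25 ± 0.05 (SE; edgeR adjusted p = 0.000761), so that NOLC1 fell by 16.0% with a 95% interval of -22.3% to -9.20%. NOLC1 kept its direction and its call in all 15 alternatives, with log2 fold changes from -0.47 to -0.23 and adjusted p up to 0.00739. In the authors' deposited table its log2 fold change was -0.27 (adjusted p = 0.000362). The ratio of NOLC1 counts to DKC1 counts, which needs no scaling between libraries, averaged 1.97 ± 0.0484 under UNC2400 and 1.77 ± 0.0364 under UNC1999 (SD, n = 3 each). The ratio to NOP58 was 1.97 ± 0.0950 and 1.64 ± 0.0420 (SD, n = 3 each), and neither ratio overlapped between the compounds. NOLC1 therefore stood lower relative to a core gene of each snoRNP kind as well as in CPM. How often ratios of other gene pairs separate the compounds was not examined. Among single tested genes, 60.6% had groups that did not overlap.

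Among the box C/D core proteins in this set only the scaffold gene NOP56 passed. NOP56 was at 377, 351 and 347 CPM in UNC2400 replicates 1 to 3. In UNC1999 replicates 1 to 3 it was at 390, 398 and 397 CPM. The log2 fold change was 0.14 ± 0.05 (SE, edgeR adjusted p = 0.0324). The length and GC correction turned it to -0.09, which was not called (edgeR adjusted p = 0.172). The groups did not overlap, but UNC2400 replicate 1 lay nearer to the lowest UNC1999 library than to the other UNC2400 libraries. The call was kept in 7 of 15 alternatives. It was lost without UNC2400 replicate 2 (adjusted p = 0.142), UNC2400 replicate 3 (0.173), UNC1999 replicate 2 (0.0605) or UNC1999 replicate 3 (0.171). In the authors' deposited table NOP56 had a log2 fold change of 0.12 and an adjusted p of 0.0686, which does not pass 0.05.

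NOP58, its scaffold partner, was at 234, 243 and 239 CPM in UNC2400 and 248, 230 and 245 CPM in UNC1999, and the groups overlapped. Its log2 fold change was 0.02 with a 95% interval of -0.09 to 0.12. FBL, the methyltransferase, was at 362, 379 and 369 CPM in UNC2400 and 364, 347 and 380 CPM in UNC1999, with a log2 fold change of -0.02 and an interval of -0.14 to 0.09. Within libraries, the ratio of NOP56 to FBL counts was 0.969 ± 0.0627 in UNC2400 and 1.09 ± 0.0543 in UNC1999, with no overlap (SD, n = 3 for both). That of NOP56 to NOP58 was 1.61, 1.44 and 1.45 in UNC2400 and 1.57, 1.73 and 1.62 in UNC1999, and overlapped. Of these ratios, that to FBL separated the compounds and that to NOP58 did not. How often ratios of other gene pairs do so was not examined. The ratios were not corrected for gene length and GC content, with which NOP56 stood at -0.09 and FBL at -0.17.

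The H/ACA core genes went in both directions. NOP10, the smallest of the transcripts, was at 117, 129 and 119 CPM in UNC2400 replicates 1 to 3. In UNC1999 replicates 1 to 3 it was at 135, 132 and 143 CPM. The log2 fold change was 0.17 ± 0.05 (SE, edgeR adjusted p = 0.0161). The length and GC correction turned it to -0.08, which was not called (edgeR adjusted p = 0.238). UNC2400 replicate 2 lay just under the lowest UNC1999 library. The call was kept in 9 of 15 alternatives and lost without UNC2400 replicate 1 (adjusted p = 0.0943), UNC2400 replicate 3 (0.0902) or UNC1999 replicate 3 (0.168). In the authors' deposited table NOP10 had a log2 fold change of 0.15 (adjusted p = 0.0393).

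DKC1, the pseudouridine synthase, was at 240, 239 and 237 CPM in UNC2400 and 235, 211 and 224 CPM in UNC1999. NHP2, an RNA-binding subunit, was at 54.6, 54.7 and 55.6 CPM in UNC2400 and 52.4, 48.9 and 51.9 CPM in UNC1999. For both genes every UNC1999 library was below every UNC2400 library, yet neither passed: log2 fold changes were -0.10 ± 0.05 (SE; adjusted p = 0.136) and -0.11 ± 0.05 (SE; adjusted p = 0.095) by edgeR. Without UNC1999 replicate 1 both passed, DKC1 at -0.15 (adjusted p = 0.0124) and NHP2 at -0.15 (adjusted p = 0.0204). NHP2 shares exonic sequence with RMND5B on the opposite strand in GENCODE release 29, and the strand setting of the counting is not given in the sources used here, so reads of the overlap could be split; RMND5B itself had a log2 fold change of 0.04 (adjusted p = 0.509). GAR1, the subunit that joins last, was at 41.98, 41.12 and 41.26 CPM in UNC2400 and 45.8, 41.4 and 48.2 CPM in UNC1999. All 3 values in UNC2400 lay close together and UNC1999 replicate 2 lay between them. Its log2 fold change was 0.12 with an interval of -0.0050 to 0.25 (adjusted p = 0.0993), and 0.17 (adjusted p = 0.0217) without UNC1999 replicate 2. Over the 10 genes, 5 had groups that did not overlap, 2 higher and 3 lower, where 60.6% of all tested genes had such groups, 30.9% higher and 29.7% lower.

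Within libraries NOP10 and GAR1 shifted relative to DKC1. The ratios are given without a test, since 3 against 3 libraries allow no exact p below 0.1. The ratio of NOP10 to DKC1 counts was 0.487, 0.541 and 0.50 in UNC2400 replicates 1 to 3 and 0.575, 0.623 and 0.637 in UNC1999. That of GAR1 to DKC1 was 0.174 ± 0.00125 under UNC2400 and 0.202 ± 0.0112 under UNC1999 (SD, n = 3 each). Both ratios were higher in every UNC1999 library, while the ratio of NHP2 to DKC1 was 0.230 ± 0.0038 and 0.229 ± 0.00484 (SD, n = 3 each) and overlapped. Of the 3 ratios within the H/ACA particle, those of NOP10 and GAR1 separated the compounds and that of NHP2 did not. How often ratios of other gene pairs do so was not examined, and the ratios were not corrected for gene length and GC content. Over single tested genes, 60.6% had groups that did not overlap.

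The 250 bases before the start site of the 2 genes that rose are shown from RefSeq (GRCh38.p14). The length and GC correction takes both genes below 0, with neither called. Capitals mark CACGTG, the canonical E-box, which reads the same on both strands and which MYC-family proteins bind. NOP10 lies on chromosome 15 (minus strand, chr15:34343137-34343386) and NOP56 on chromosome 20 (plus strand, chr20:2652382-2652631).
NOP10: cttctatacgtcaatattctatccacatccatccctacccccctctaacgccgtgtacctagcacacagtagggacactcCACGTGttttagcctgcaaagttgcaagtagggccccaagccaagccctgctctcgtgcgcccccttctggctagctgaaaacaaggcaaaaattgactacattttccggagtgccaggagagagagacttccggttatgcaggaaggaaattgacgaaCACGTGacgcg
NOP56: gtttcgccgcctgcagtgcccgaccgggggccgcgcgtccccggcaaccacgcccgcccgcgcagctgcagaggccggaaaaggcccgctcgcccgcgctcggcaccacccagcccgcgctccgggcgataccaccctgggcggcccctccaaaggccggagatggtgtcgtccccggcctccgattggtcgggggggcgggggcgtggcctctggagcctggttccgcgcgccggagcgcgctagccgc

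NOP10 held CACGTG at 2 positions, starting 170 and 11 bases before the start site. Of the 8 genes with an entry, NOP10 alone held the motif in this window, which was present in 6.34% of 35116 windows of that length; NOP58 and NOLC1 had no entry. The NOP56 window was 78.0% G and C and that of NOP10 52.0%. A match describes the letters and is not a site in use.

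Nucleolin and nucleophosmin, the most abundant of the 10, did not pass the test. NCL was at 2330, 2296 and 2319 CPM in UNC2400 replicates 1 to 3 and 2298, 2076 and 2193 CPM in UNC1999. UNC1999 replicate 1 lay within the narrow UNC2400 range and the other UNC1999 libraries below it. The log2 fold change was -0.08 with a 95% interval of -0.21 to 0.05 (edgeR adjusted p = 0.279). NPM1 was at 2312, 2454 and 2420 CPM in UNC2400 and 2563, 2334 and 2521 CPM in UNC1999, with a log2 fold change of 0.05 and an interval of -0.09 to 0.18 (edgeR adjusted p = 0.563). In percent the NCL interval runs from -13.5% to 3.32%, so equal levels are not shown for either gene. The ratio of NCL to NPM1 counts was 1.01, 0.936 and 0.958 in UNC2400 and 0.897, 0.89 and 0.87 in UNC1999, lower in every UNC1999 library. How often ratios of other gene pairs separate the compounds was not examined. The ratio was not corrected for gene length and GC content, with which NCL stood at -0.14 and NPM1 at -0.075.

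NPM1 has many processed pseudogenes. The table held 45 rows of them, with 617 counts in all against 498075 for NPM1, or 0.124%; NCL had 2 such rows (0.017% of its counts) and NHP2 2 (0.0832%). Adding them to their genes left 2 of the 10 genes higher and 1 lower, with 4714 of 17592 tested genes higher and 4554 lower.

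Within the UNC1999 group the replicates were not interchangeable for these genes. UNC1999 replicate 2 was the lowest of its group for 9 of the 10, and for the tenth, NOP56, it was the highest. Over all tested genes 34.9% had their lowest UNC1999 value in that library. Its TMM scaling factor was 1.04, the highest of the 6, where the others ran from 0.971 to 1.01. The part of the scaling factor in this pattern was not tested. Without UNC1999 replicate 2, 2 of the 10 genes were higher, NOP10 and GAR1, and NOLC1 was lower. In that fit 4045 of 17815 tested genes were higher and 4313 lower. The length and GC correction takes NOP10 and GAR1 below 0, with neither called.

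Offsets for gene properties lowered the fold changes of all 10 genes. They were fitted in each library over all annotated genes, with no term for the compound. They therefore also remove any effect of UNC1999 that goes with span, exon length or GC content. Between the compounds the offsets of the 10 genes differed by 0.058 to 0.249 (log2, UNC1999 minus UNC2400). Over all tested genes with an annotation, the median log2 fold change fell with genomic span, from 0.212 for 1698 genes up to 5 kb and 0.144 for 3908 genes of 5 to 20 kb to -0.28 for 2998 genes above 100 kb. Of the 10 genes, NOP10 and NHP2 span up to 5 kb, FBL, NOP56, DKC1, GAR1 and NOLC1 5 to 20 kb, and NCL, NPM1 and NOP58 20 to 100 kb, where the median of 6208 genes was -0.0247. With offsets per library for span, exon length and GC content, all 10 log2 fold changes were below 0, with a median of -0.13 beside 0.0058 for all tested genes. The 3 properties were not separated. Then 4 of the 10 were called lower, NOLC1 (-0.47), NHP2 (-0.28, adjusted p = 0.000249), DKC1 (-0.28, adjusted p = 0.000683) and FBL (-0.17, adjusted p = 0.0158), and 0 higher by edgeR, also at an unadjusted p under 0.05. In the same fit 4327 of 17596 tested genes were called lower and 4264 higher. NOLC1 thus fell with or without the offsets, whereas the direction of NPM1, NOP56, NOP58, NOP10 and GAR1 depended on them.

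**Figure D3:**
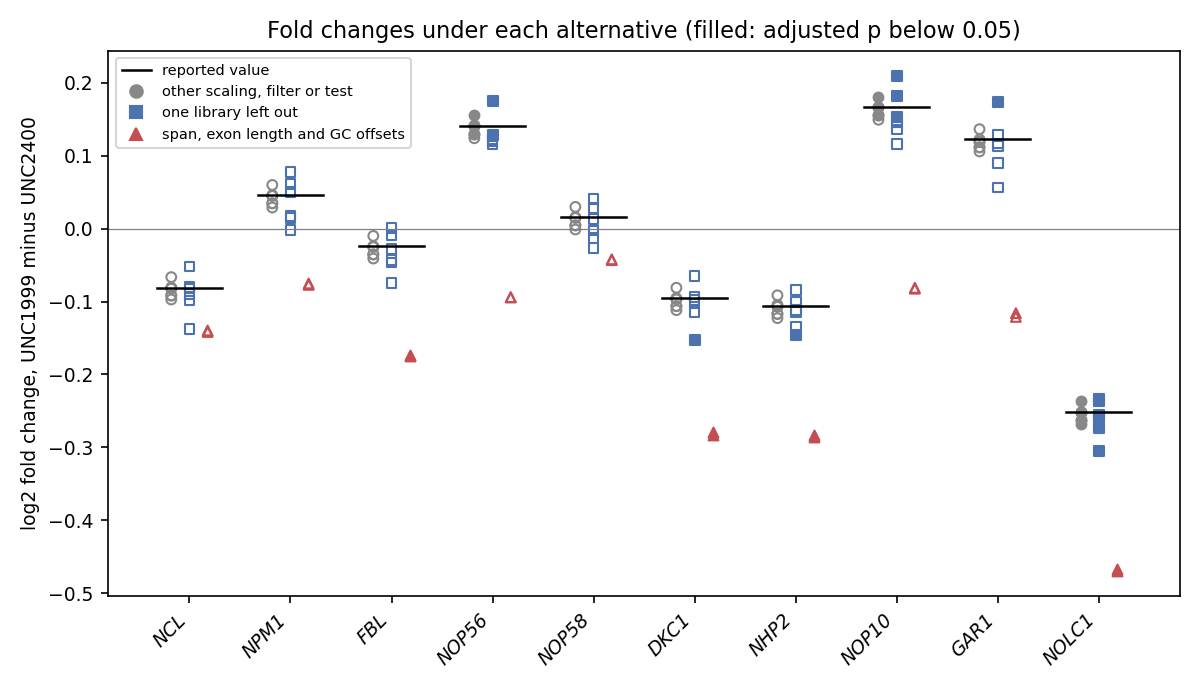
Log2 fold change of each gene under the 15 alternatives; black bars give the reported value, circles another scaling, filter, test, block or counting of pseudogenes, squares the fits with a library left out, triangles the offsets for span, exon length and GC with and without the replicate block, and filled symbols an adjusted p below 0.05. NOLC1 is filled throughout, and the triangles lie below 0 for all 10 genes.

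Further snoRNP protein genes, genes that assemble or mature snoRNPs, and genes related to the 10 proteins were taken in 5 lists chosen by function. Of 42 listed genes 41 were tested; 14 rose, 9 fell and 18 did not pass, with a median log2 fold change of 0.04 and a median size of 0.16, against 52.7% called and a median size of 0.28 over all tested genes. Among further box C/D proteins and their assembly factors 2 of 9 rose and 2 fell. The rises were in ZNHIT3 (0.34 ± 0.06) and NUFIP1 (0.28 ± 0.06), which bind each other during assembly (log2, SE; adjusted p = 0.000173 and 0.000736 by edgeR). With the length and GC offsets ZNHIT3 was at 0.17 and still called. The falls were in RUVBL1 (-0.18 ± 0.05; edgeR adjusted p = 0.00906) and RUVBL2, the ATPases of the same pathway; with the length and GC offsets RUVBL1 was at -0.08 and not called. In the H/ACA and telomerase list 1 of 4 tested genes rose and 1 fell. WRAP53, which brings H/ACA RNAs to Cajal bodies, went from 36.5 ± 1.95 to 41.4 ± 2.06 CPM, and TERT, the telomerase reverse transcriptase, from 9.30 ± 0.639 to 7.84 ± 0.556 CPM (SD, n = 3 each; edgeR adjusted p = 0.0171 and 0.0497). WRAP53 was called in 10 of 15 alternatives and TERT in 4; with the length and GC offsets they stood at 0.10 and -0.14 and were not called. SHQ1, a chaperone of DKC1, was at 46.1 ± 1.22 and 43.8 ± 3.75 CPM (SD, n = 3 each; adjusted p = 0.34 by edgeR).

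In the Cajal body and maturation list 4 of 10 rose and 3 fell, where 26.8% of all tested genes were called higher and 25.9% lower. COIL (coilin), the scaffold of Cajal bodies, moved most: 33.4, 31.3 and 32.3 CPM in UNC2400 replicates 1 to 3 and 52.3, 55.1 and 56.0 CPM in UNC1999, a log2 fold change of 0.75 ± 0.06 (SE; edgeR adjusted p = 1.99e-08). PARN, a deadenylase that trims H/ACA RNAs, fell by 0.43 ± 0.06 and NCBP1, a subunit of the nuclear cap-binding complex, by 0.36 ± 0.05 (log2, SE; edgeR adjusted p = 1.51e-05 and 2.41e-05); with the offsets PARN was at -0.26 and still called. Coilin and NOLC1 bind each other, and their transcripts moved in opposite directions, each in all 15 alternatives.

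Among relatives of the 10 proteins 3 of 9 rose and 2 fell, beside 26.8% of all tested genes called higher and 25.9% lower. TCOF1 (treacle), which resembles NOLC1 in sequence and serves ribosomal RNA transcription, was at 340, 324 and 335 CPM in UNC2400 replicates 1 to 3 and at 253, 205 and 214 CPM in UNC1999. The groups lay far apart, with a log2 fold change of -0.57 ± 0.07 (SE; edgeR adjusted p = 2.37e-06). RPL7A, a ribosomal protein of the same fold family as NHP2, rose by 0.40 ± 0.06 (log2, SE; edgeR adjusted p = 4.01e-05) and stood at 0.12, not called, with the length and GC offsets; it has processed pseudogenes, and how reads were divided among them was not examined, so its value is uncertain. The related SECISBP2, which also has that fold, fell by 0.33 ± 0.05 (log2, SE; edgeR adjusted p = 9.39e-05). The nucleophosmin relative NPM2 also rose, from 0.911 ± 0.115 to 1.95 ± 0.302 CPM (SD, n = 3 each; edgeR adjusted p = 0.000447). It is a low-count gene, with 25 to 36 counts per library in UNC2400 and 60 to 78 in UNC1999. NPM3 rose less, from 105 ± 2.52 to 117 ± 7.90 CPM (SD, n = 3 each, edgeR adjusted p = 0.0216). Alternatives are not given for either gene. In the list of nucleolar partners 4 of 9 rose and 1 fell, beside the same shares of all tested genes. GLTSCR2 (NOP53) rose by 0.42 ± 0.05 and GNL3 (nucleostemin) by 0.37 ± 0.05, and BOP1, a ribosome assembly factor, fell by 0.37 ± 0.09 (log2, SE; edgeR adjusted p = 2.24e-06, 1.72e-05 and 0.00229). With the offsets GNL3 was at 0.18 and still called, whereas GLTSCR2 had no annotation under that name and its value was not corrected.

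**Figure D4:**
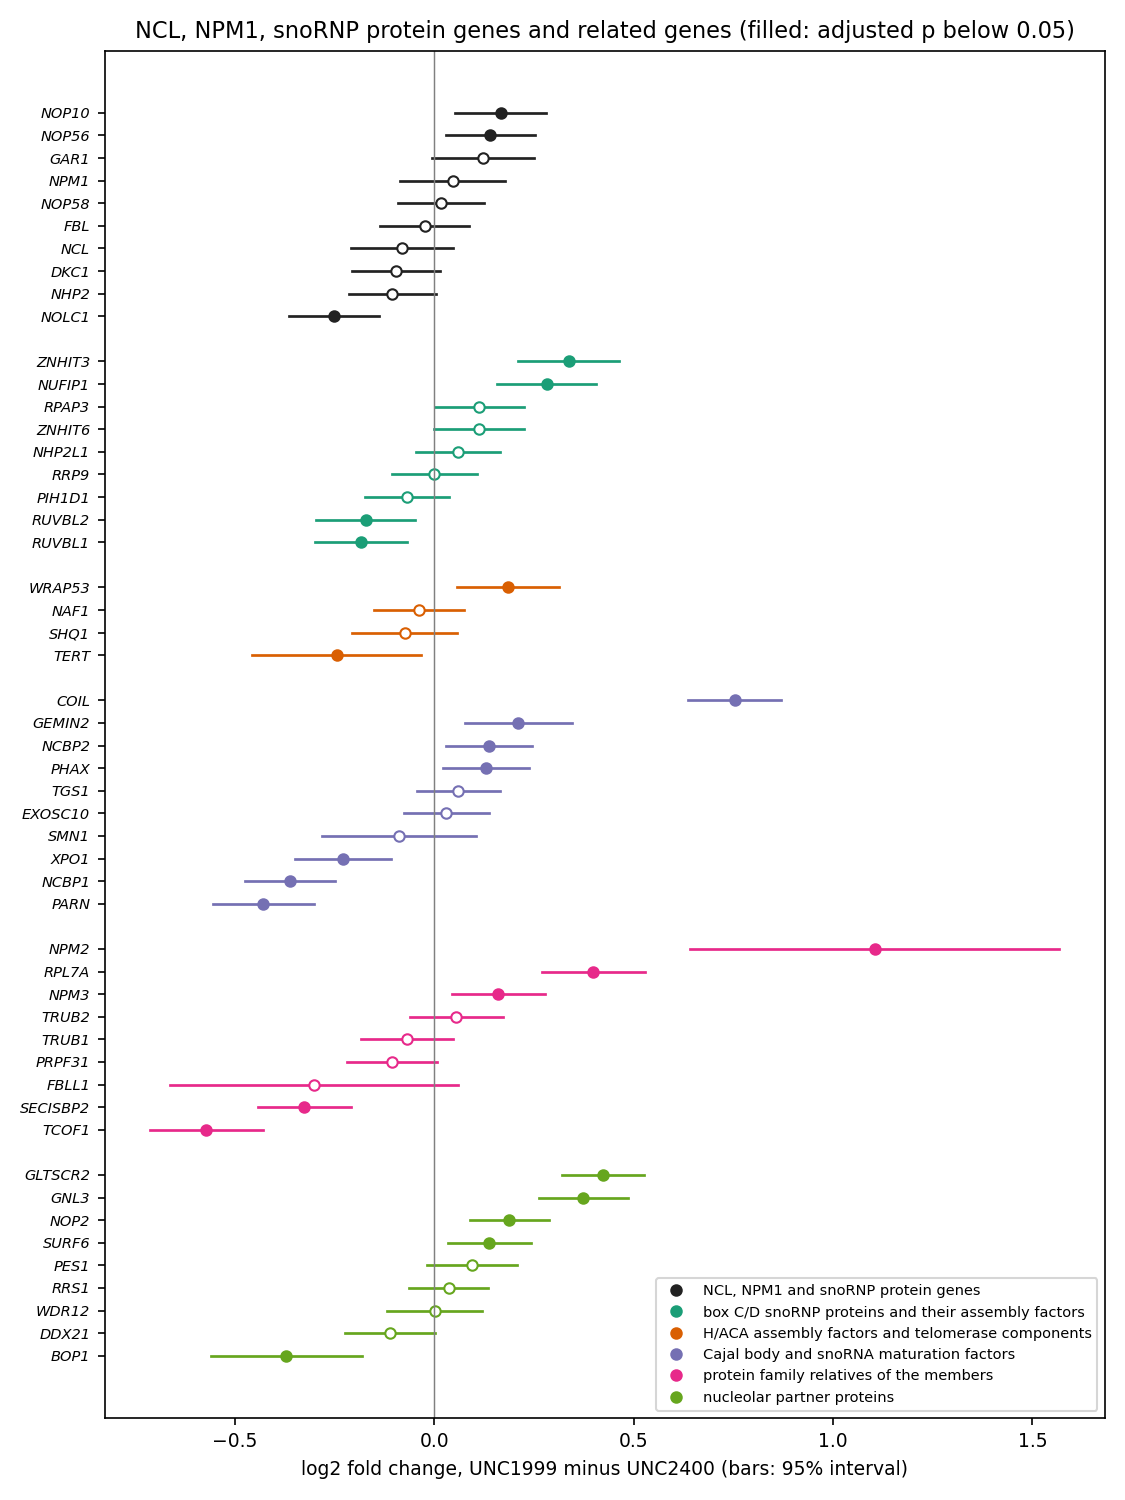
Log2 fold changes, UNC1999 minus UNC2400, with 95% intervals for the 10 genes and the 41 tested related genes by list; filled points have an edgeR adjusted p below 0.05. NOLC1 at -0.25 is the lowest of the 10, TCOF1 at -0.57 the lowest of the related genes, and COIL at 0.75 is far above the others of its list. With the length and GC offsets NPM1, NOP56, NOP58, NOP10, GAR1 and SHQ1 change sign, and none of these is then called.

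**Figure D5:**
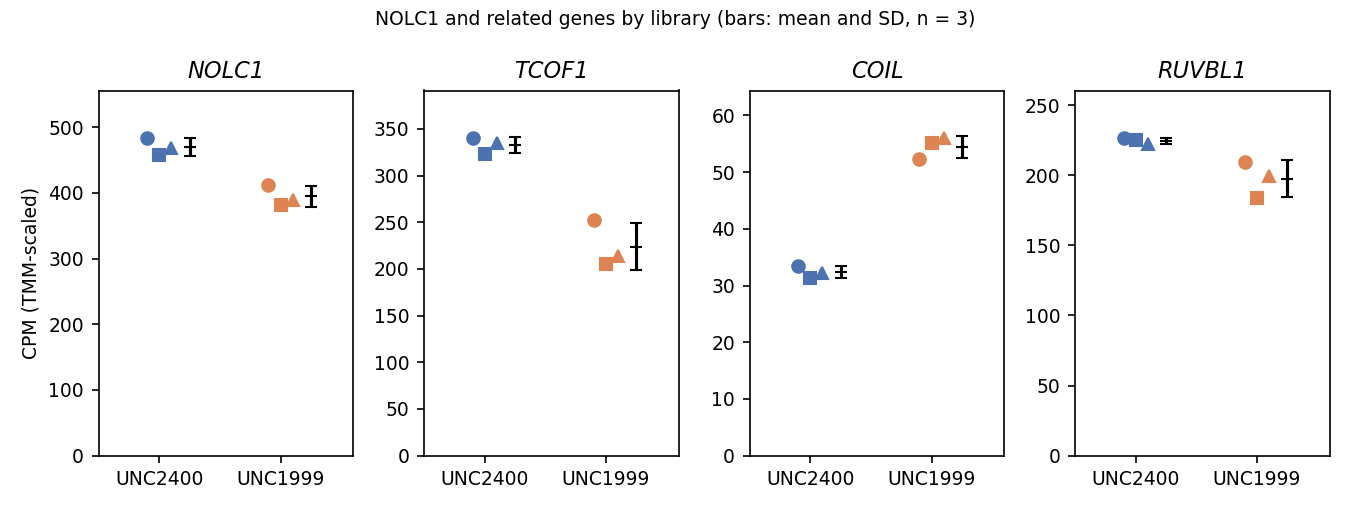
TMM-scaled CPM of NOLC1, its relative TCOF1, its binding partner COIL and the assembly ATPase RUVBL1 in each library (symbols by replicate), with mean and SD over 3 libraries per compound on axes that start at 0. UNC1999 libraries lie below UNC2400 libraries for NOLC1, TCOF1 and RUVBL1 and above them for COIL.

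The small RNAs hosted by these genes could not be compared. Of 13 listed snoRNAs within NCL, NOP56, NOP58 and DKC1, all but SNORA56 of DKC1 intronic in the principal transcript, 12 had a row in the table, and none passed the low-count filter: 5 had 0 counts in all libraries, the highest count in a library was 14, and they summed to 86 counts in UNC2400 and 57 in UNC1999. SNORD56 had 5 and 6 counts and SNORA36A 0. TERC, the telomerase RNA, had 4 to 11 counts per library. These RNAs mostly lack a poly(A) tail, and the libraries were selected for it, so their counts do not measure their level.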

How the data were processed

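The counts were deposited by the authors as whole numbers per gene name, without normalization, in a table marked as having duplicates removed. Per the submitters' processing notes the tools were TopHat2 2.0.13, Subread 1.5.0, Trim Galore 0.4.0 and featureCounts, on build hg19; roles and order are not stated there. The authors' deposited log2 values (normalized, marked batch-corrected) were not used in tests. Their deposited comparison table holds p-values, scores of each test and log2 fold changes, with column names as limma writes them, per the file headers.

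Here counts were tested two-sided by the quasi-likelihood method of edgeR 4.0.16 (R 4.3.3), using TMM scaling, edgeR's low-count filter and group as the only term, with Benjamini-Hochberg adjustment over 17596 genes and a threshold of 0.05. Levels are TMM-scaled CPM. The test was checked on simulated data, in which far fewer genes changed than were called here. Alternatives were RLE and upper-quartile scaling, no low-count filter, DESeq2 1.42.0, limma-voom (limma 3.58.1), the replicate number as a block, offsets for span, exon length and GC content (natural splines, from GENCODE release 29 by gene name, found for 84.2% of tested genes and all 10), block and offsets together, pseudogene rows added, and each library left out. The genes and lists were chosen with earlier results of these data known. All 10 genes are given in full, and of each list up to 3 genes with the smallest p. RUVBL2, NPM2, NPM3 and the marker genes are named in addition, after their values were seen.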

Additional observations from a re-analysis of the deposited data

How the results depend on the processing

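NOLC1 kept its direction and call in all 15 alternatives, as did 10 of the 15 related genes named by rule (ZNHIT3, NUFIP1, COIL, PARN, NCBP1, TCOF1, SECISBP2, GLTSCR2, GNL3 and BOP1). GLTSCR2 had no annotation, so the offsets did not correct it. The 15 related genes had the smallest p of their lists in the reported fit. The alternatives reuse the same libraries, so their kept calls are not independent support. The other calls among the 10 genes were less stable. The count of genes higher, 2 as reported, was 1 with RLE scaling and 0 with no low-count filter (2 at an unadjusted p under 0.05 by edgeR), and 0 to 2 with a library left out; the count lower, 1 as reported, was 1 to 3 with a library left out. With the span, exon length and GC offsets 0 were higher and 4 lower, with or without the replicate block. Over all genes 4498 of 17596 were higher and 4645 lower with RLE scaling. Without the low-count filter 4304 of 36090 were higher and 4600 lower. For the offsets these counts were 4264 and 4327, and for block and offsets 4350 and 4435. With a library left out, 3642 to 4925 of all genes were higher and 3951 to 5151 lower. At an unadjusted p under 0.05 edgeR with the offsets found 0 of the 10 higher, and DESeq2 and limma-voom, run without offsets, found 2. Related genes higher, 14 as reported, were 9 with no low-count filter, 8 with the offsets, 8 with block and offsets, and 8 to 13 with a library left out: 9 without UNC2400 replicate 3 and 8 without UNC1999 replicate 3. The count higher fell to 1 without UNC2400 replicate 1 or UNC2400 replicate 2 and to 0 without UNC2400 replicate 3 or UNC1999 replicate 3. Signs turned with the offsets for NPM1 (-0.075), NOP56 (-0.094), NOP58 (-0.042), NOP10 (-0.081), GAR1 (-0.12) and SHQ1 (0.039), and with block and offsets for the same genes (-0.077, -0.094, -0.043, -0.082, -0.12 and 0.035). NOP58 also turned with no low-count filter (-0.0011). With a library left out NPM1 ran from -0.0014 to 0.078, FBL from -0.074 to 0.0010 and NOP58 from -0.027 to 0.040. The cause of these changes was not tested. The replicate block alone left 2 of the 10 genes higher and 1 lower (4867 and 4695 over all genes, against 4714 and 4554). Same-numbered libraries had correlations of their deviations of 0.0237, 0.0839 and 0.124, and libraries of different numbers from -0.136 to 0.0618. Every library but UNC2400 replicate 1 correlated best with its own number. The reported fit did not pair the samples by number. Whether the numbers mark a shared batch was not tested.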
